A study of Mus musculus with 6 samples.

Results

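Axon guidance genes encode the ligands and receptors that steer growing axons and, in adult tissue, also act on vessels, glia and fibroblasts. They were taken here as the genes whose symbol alone was assigned to a probe set and begins with one of the guidance family names: semaphorins, plexins, neuropilins, ephrins, Eph receptors, netrins and their receptors, Slits and Robos. The rule found 73 of the 18193 named genes. Of these, 3 are held only by the start of their symbol: Unc50, which is no netrin receptor, the Unc5c-like protein Unc5cl and Plxna4os1, a transcript opposite Plxna4. They stay in all counts unless stated, and none of the 3 was called.

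Expression was measured on Affymetrix microarrays of adult, untreated C57/BL6 mice, with 3 arrays for each of 2 organs, carotid body and adrenal medulla. The first is a small chemoreceptor organ at the carotid bifurcation whose glomus cells sense arterial oxygen, while the second holds the chromaffin cells that release catecholamines. Each carotid body array was 1 pool of 18 organs and each adrenal medulla array 1 pool of 10, from 10 mice, and arrays of both tissues with the same number, 1, 2 or 3, came from 1 cohort of animals. The labels give no genotype or treatment that differed between the groups.

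Guidance signalling works through short-range and diffusible cues. Class 3 semaphorins are secreted and signal through complexes of a neuropilin, which binds the ligand, and a plexin, which carries the signal inward, while most other semaphorins are membrane-bound and bind plexins directly. Netrins attract axons through Dcc and repel them through Unc5 receptors, Slits repel through Robo receptors, and membrane-bound ephrins signal to Eph receptor tyrosine kinases on neighbouring cells. In peripheral organs the same genes are known for their part in innervation, in the migration of neural crest cells and in vessel growth.

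Levels are log2 intensities, and differences are carotid body minus adrenal medulla on the log2 scale, with the standard error (SE) of the limma fit. A gene was called when the Benjamini-Hochberg adjusted p of that fit, over all 45037 probe sets, was under 0.05 and the difference was at least 2-fold. For each gene the brightest probe set was used, judged by its mean over the 6 arrays, and per-array values are listed in the order of cohorts 1, 2 and 3. Levels of different genes are not compared, because probe sets differ in brightness.

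Of the 73 guidance genes, 15 (20.5%) were higher in carotid body, against a background of 5.91% of all named genes. Another 6 (8.22%) were higher in adrenal medulla, against a background of 6.08%. In either direction 21 were called, against a background of 12%, and the remaining 52 were not. Restricted to genes with a mean level at or above the array median of 5.24, 15 of 58 members were higher in carotid body (background 8.29%) and 6 were higher in adrenal medulla (background 8.57%). The median difference of the 73 genes was 0.11 and that of all named genes was -0.04. With each array centred on its median these were -0.01 and -0.15, since centring shifts all genes alike and leaves the gap at 0.15. After quantile normalization the gap was 0.29.

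The members higher in carotid body came from the semaphorin, netrin and ephrin systems: Sema3c, Sema3g, Sema3b, Sema3e, Sema6d, Ntn1, Ntn4, Efnb2, Nrp1, Plxnb3, Epha3, Ephb6, Epha4, Ephb3 and Epha7. Those higher in adrenal medulla were Dcc, Unc5a, Sema5b, Sema5a, Epha10 and Slit2. Of 37 ligand genes 8 (21.6%) were higher in carotid body and 3 (8.11%) lower. Of 33 receptor genes, without the 3 held only by the start of their symbol, 7 (21.2%) were higher and 3 (9.09%) lower. The backgrounds for these shares were again 5.91% and 6.08%. In 27 members all carotid body arrays lay above all adrenal medulla arrays (background 17.8%), and in 15 the reverse held (background 26.1%). Without adrenal medulla array 2 the members called higher in adrenal medulla were 3, Dcc, Sema5b and Unc5a, with no background given for that run.

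**Figure D1:**
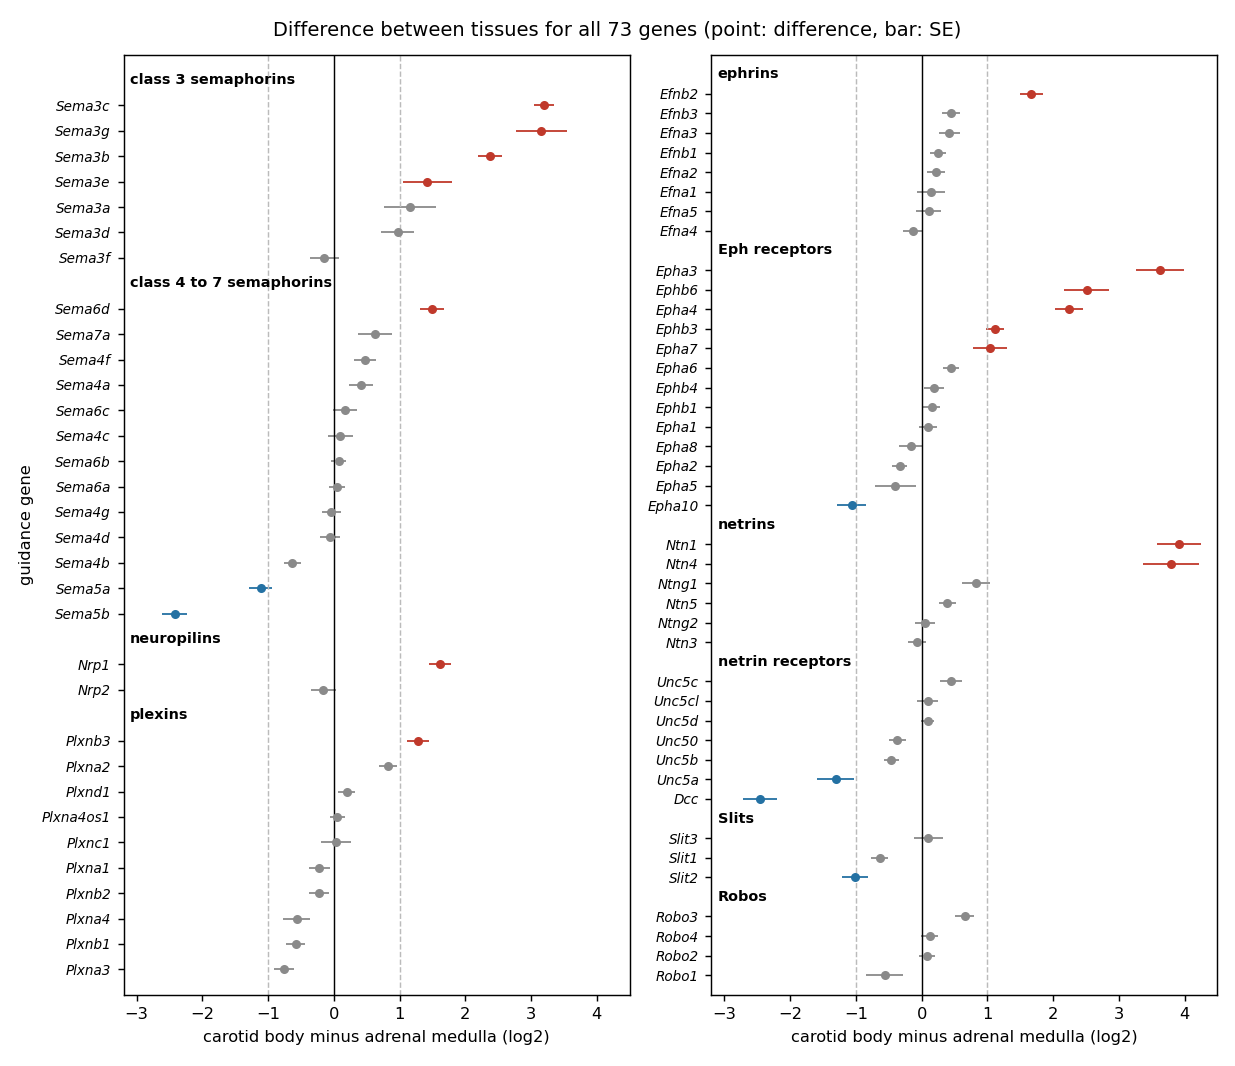
Difference between the tissues for each of the 73 guidance genes, in log2 units, by family. Points are carotid body minus adrenal medulla and bars are the SE, red marks genes called higher in carotid body, blue those called higher in adrenal medulla, grey those not called, and dashed lines mark 2-fold; Ntn1 lies farthest right at 3.92 and Dcc farthest left at -2.46.

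Levels of cell type markers differed between the tissues, and in bulk samples fewer cells of a type and less RNA per cell cannot be told apart. All 10 fibroblast markers were higher in carotid body, with a mean level over the list of 11.47 to 11.58 against 8.34 to 8.52 in adrenal medulla. So were all 10 smooth muscle and pericyte markers (10.56 to 10.72 against 8.06 to 8.41) and 7 of 8 glial markers (9.53 to 9.77 against 7.52 to 7.87). Endothelial markers had 3 of 10 higher (9.24 to 9.54 against 8.28 to 8.43), macrophage markers 3 of 6 (8.60 to 8.77 against 7.44 to 7.70), and ganglion neuron markers 1 higher and 1 lower of 10 (8.86 to 9.53 against 8.26 to 8.95). Of 9 glomus and chromaffin markers 8 were higher in adrenal medulla (9.79 to 10.17 in carotid body against 11.78 to 12.26), while the glomus gene Olfr78 was 11.18 to 11.90 in carotid body against 4.96 to 5.89. Pnmt, the chromaffin enzyme that makes adrenaline, was 7.65 to 11.13 in carotid body, highest in array 1, against 13.17 to 13.84. Genes of the adrenal cortex averaged 11.71 to 12.29 in the adrenal medulla arrays, 10.04 in carotid body array 1 and 5.02 to 5.24 in the other carotid body arrays. The Gapdh 3′ minus 5′ difference, which grows as RNA is degraded, was 0.59 to 1.45 in carotid body against 0.13 to 0.61 in adrenal medulla. The part of composition and of RNA quality in the guidance genes was not tested. Without carotid body array 1, 20 of the 21 called members were still called, and Slit2 fell just under 2-fold at -0.97. In that run the cortex genes still averaged 11.71 to 12.29 in adrenal medulla against 5.02 to 5.24 in carotid body. It is therefore no test of the part of cortex in the adrenal medulla arrays.

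Promoters of 62 of the 73 genes, and of 18 of the 21 called ones (all but Dcc, Ntn1 and Sema3b), were present in the promoter table made from RefSeq (GRCm38.p6). The 250 bases before the start site were searched on both strands for the TATA box (TATAAA), the CCAAT box, the GC box (GGGCGG) and ACGTG, the core of the element that hypoxia-inducible factors bind. None of these motifs contains another. The motifs were chosen after the expression differences were known, and a match is no more than a run of letters. ACGTG was found in 10 of the 62 (16.1%), against 16.6% of 27025 promoters, 1 a gene, in the table. By call, it was in 5 of 13 promoters of members higher in carotid body (38.5%). It was in 0 of 5 of members higher in adrenal medulla and in 5 of 44 of those not called (11.4%). These groups are small, and the difference between them was not tested. GGGCGG was found in 46 of the 62 (74.2%) against 32.9%, TATAAA in 2 (3.23%) against 13.0%, and CCAAT in 16 (25.8%) against 34.5%. The member promoters had a median GC content of 64.4% and 16 CpG, against 52.0% and 6 over all promoters, and the part of base composition in these shares was not tested.

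The promoters below are those of 4 members higher in carotid body that hold ACGTG, and of Ntn4 and Sema5b, which hold none and had large differences in opposite directions. Sequences run 5′ to 3′ on the gene's strand, end at the base before the start site and show ACGTG, or CACGT on the opposite strand, in capitals. In Sema6d the capitals are the palindrome CACGTG, counted once on each strand. The promoter table holds 2 promoters for Sema6d. As for every gene with several, only the first listed was counted and is shown. The fifth promoter with the motif, that of Ephb3, is not shown.
Sema3c (GRCm38.p6, chr5:17574566-17574815, plus strand): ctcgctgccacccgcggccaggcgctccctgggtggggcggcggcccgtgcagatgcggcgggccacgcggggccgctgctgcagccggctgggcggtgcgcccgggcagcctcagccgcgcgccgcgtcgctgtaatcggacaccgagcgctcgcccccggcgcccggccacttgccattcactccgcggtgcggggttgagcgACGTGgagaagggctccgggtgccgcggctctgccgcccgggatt
Sema6d (GRCm38.p6, chr2:124089719-124089968, plus strand): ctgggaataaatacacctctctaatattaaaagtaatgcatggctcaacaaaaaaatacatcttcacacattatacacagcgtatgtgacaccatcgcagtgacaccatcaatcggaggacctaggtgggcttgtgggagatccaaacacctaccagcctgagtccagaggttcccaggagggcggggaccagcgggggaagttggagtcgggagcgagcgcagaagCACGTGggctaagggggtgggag
Epha4 (GRCm38.p6, chr1:77515089-77515338, minus strand): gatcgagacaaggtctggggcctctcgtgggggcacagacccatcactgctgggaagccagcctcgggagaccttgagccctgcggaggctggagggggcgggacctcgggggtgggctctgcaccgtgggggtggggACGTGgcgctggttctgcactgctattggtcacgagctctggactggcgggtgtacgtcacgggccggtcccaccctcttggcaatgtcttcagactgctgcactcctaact
Ephb6 (GRCm38.p6, chr6:41605261-41605510, plus strand): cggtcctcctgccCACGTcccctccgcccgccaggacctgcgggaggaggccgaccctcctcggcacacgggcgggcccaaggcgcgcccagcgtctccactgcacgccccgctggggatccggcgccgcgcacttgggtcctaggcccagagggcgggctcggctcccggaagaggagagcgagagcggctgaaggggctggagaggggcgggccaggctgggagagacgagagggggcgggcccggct
Ntn4 (GRCm38.p6, chr10:93640799-93641048, plus strand): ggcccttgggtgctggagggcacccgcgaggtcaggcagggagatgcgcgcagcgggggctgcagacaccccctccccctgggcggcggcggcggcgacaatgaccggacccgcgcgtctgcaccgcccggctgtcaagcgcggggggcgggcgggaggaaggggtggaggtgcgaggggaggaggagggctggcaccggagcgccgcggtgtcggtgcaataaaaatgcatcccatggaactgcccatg
Sema5b (GRCm38.p6, chr16:35541112-35541361, plus strand): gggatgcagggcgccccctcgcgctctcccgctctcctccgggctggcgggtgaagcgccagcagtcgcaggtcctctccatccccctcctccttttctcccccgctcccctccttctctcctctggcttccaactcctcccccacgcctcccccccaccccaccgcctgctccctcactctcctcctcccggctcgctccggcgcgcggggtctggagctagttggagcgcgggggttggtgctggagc

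Among the secreted class 3 semaphorins, 4 of 7 genes were higher in carotid body (background 5.91%) and 0 were lower (background 6.08%). The median difference was 1.42. The largest was that of Sema3c, a cue for neural crest cells in the outflow tract of the heart. Its level was 9.82, 10.06 and 10.02 in carotid body against 6.49, 6.86 and 6.97 in adrenal medulla. The groups lay far apart, and the difference was 3.20 ± 0.16 (SE, n = 3 arrays each), or 9.17-fold (limma adjusted p = 3.01e-05). Sema3g, a cue made by arterial endothelium, was 7.55, 8.69 and 8.95 in carotid body against 5.67, 5.34 and 4.70 in adrenal medulla. Carotid body array 1 was the lowest of its tissue but still above every adrenal medulla array, and the difference was 3.16 ± 0.39 (adjusted p = 0.00132). Sema3b was 8.45, 8.92 and 9.13 against 6.34, 6.56 and 6.48, a difference of 2.37 ± 0.18 (adjusted p = 0.000191), and all 3 of its probe sets were positive.

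Sema3e, which signals through plexin D1 to vessels without needing a neuropilin, had the smallest called difference of the class. It was 6.89, 7.08 and 7.61 in carotid body against 5.03, 5.71 and 6.57 in adrenal medulla, so the tissues came close in cohort 3. The difference of 1.42 ± 0.37 (adjusted p = 0.0292) was lost as a call when any of 4 arrays was left out. The adjusted p was 0.077 and 0.0618 when carotid body arrays 2 and 3 were dropped, and 0.0617 and 0.0983 for adrenal medulla arrays 1 and 2. Sema3d was 8.23, 7.75 and 8.18 against 6.60, 7.09 and 7.57, a difference of 0.97 ± 0.25 (adjusted p = 0.0286), just under 2-fold. It passed as a call without carotid body array 2 (1.12) and without adrenal medulla array 3 (1.21). Sema3a, the classical repellent of sensory and sympathetic axons, was 4.42, 5.47 and 6.26 in carotid body against 4.20, 4.32 and 4.16 in adrenal medulla. Its carotid body arrays spread widely and array 1 lay near the adrenal medulla level. The difference was 1.16 ± 0.40 (adjusted p = 0.0774), and without carotid body array 1 it was 1.64 (adjusted p = 0.00379). When any other array was dropped it was not called (adjusted p = 0.108 to 0.187). The mean level of this Sema3a probe set, 4.81, was under the array median, and the dimmer ones gave 0.12 and -0.22. Sema3f, the main neuropilin-2 ligand, was 7.83, 7.73 and 6.99 against 7.75, 7.67 and 7.58, with overlapping groups and a difference of -0.14 ± 0.22 (adjusted p = 0.704; 95% interval -0.66 to 0.37).

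On mouse chromosome 5 the genes Sema3d, Sema3a, Sema3e and Sema3c follow each other in the RefSeq table, with 0, 3 and 15 other protein-coding genes between neighbours. Their differences in that order were 0.97, 1.16, 1.42 and 3.20, all positive. Sema3b and Sema3f lie 3 protein-coding genes apart on chromosome 9 and differed by 2.37 and -0.14.

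The membrane-bound and other semaphorins of classes 4 to 7 had 1 of 13 genes higher in carotid body and 2 lower. These shares of 7.69% and 15.4% stood against backgrounds of 5.91% and 6.08%, and rest on few genes. Sema6d, a transmembrane ligand of plexin A1 in heart development, was 9.72, 10.29 and 10.23 in carotid body against 8.39, 8.72 and 8.66 in adrenal medulla. The arrays did not overlap, and the difference was 1.49 ± 0.18 (adjusted p = 0.00127). Its other 3 probe sets were dim and gave -0.01 to 0.16. The class 5 semaphorins, transmembrane proteins with thrombospondin repeats, were higher in adrenal medulla. Sema5b was 5.24, 5.16 and 5.41 in carotid body against 7.94, 7.87 and 7.26 in adrenal medulla, which put carotid body close to the array median. The difference was -2.42 ± 0.19 (adjusted p = 0.000216), and its other probe set gave -1.73. Sema5a was 7.55, 7.38 and 7.05 against 8.35, 8.69 and 8.29, a difference of -1.11 ± 0.17 (adjusted p = 0.00344). It fell just under 2-fold, at -0.98 when carotid body array 3 was dropped and at -0.99 when adrenal medulla array 2 was, and also after quantile normalization (-0.99). Sema4b differed by -0.63 ± 0.13 (adjusted p = 0.00985), under 2-fold. On their brightest probe sets the 9 others were not past an adjusted p of 0.05. A dimmer probe set of Sema6a was, at 0.96 (adjusted p = 0.0124, mean level under the array median). On the brightest probe sets the largest of their differences was that of Sema7a, a membrane-anchored semaphorin that binds integrins. Sema7a was 7.68, 7.97 and 8.26 against 7.86, 7.24 and 6.94. The tissues overlapped, with adrenal medulla the higher one in cohort 1 (0.63 ± 0.25, adjusted p = 0.121), and without that cohort it was called, at 1.03.

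**Figure D2:**
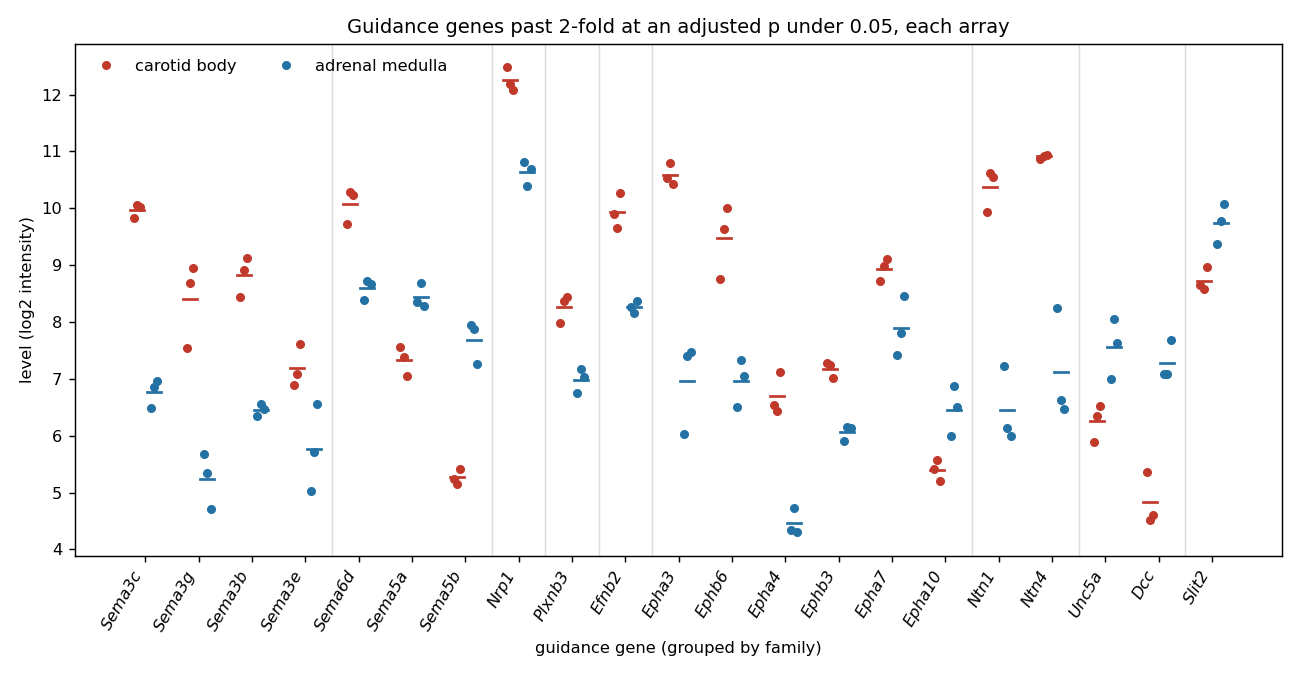
Level of each of the 21 called guidance genes on every array, in log2 intensity, grouped by family. Red points are the 3 carotid body arrays and blue points the 3 adrenal medulla arrays, each in cohort order, and short bars are tissue means; no gene shown has overlapping tissues, and the narrowest gap is that of Epha7 at 0.26.

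Of the neuropilins, the ligand-binding co-receptors of class 3 semaphorins and of vascular endothelial growth factor, Nrp1 was higher in carotid body. It was 12.48, 12.19 and 12.08 in carotid body against 10.82, 10.40 and 10.69 in adrenal medulla. The difference was 1.61 ± 0.16, or 3.06-fold (adjusted p = 0.000513), and all 4 of its probe sets were called, at 1.61 to 2.47. Nrp2 was 9.17, 8.62 and 9.09 against 8.85, 9.18 and 9.34, with overlapping groups and a difference of -0.16 ± 0.19 (adjusted p = 0.617; 95% interval -0.60 to 0.29). Its 4 probe sets ranged from -0.94 (adjusted p = 0.0386, mean level 8.59) to 0.56 (adjusted p = 0.199, mean level under the array median).

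The plexins, the signalling receptors of semaphorins, had 1 of 10 genes higher in carotid body (background 5.91%) and 0 lower (background 6.08%). Plxnb3, which binds Sema5a, was 7.99, 8.37 and 8.44 in carotid body against 6.75, 7.17 and 7.04 in adrenal medulla. The tissues were separate, and the difference was 1.28 ± 0.17 (adjusted p = 0.00177). Under 2-fold, Plxna2 was higher in carotid body by 0.82 ± 0.14 (adjusted p = 0.00512), and 3 of its 4 probe sets were past an adjusted p of 0.05. Plxna3, a receptor for Sema3f, differed by -0.75 ± 0.15 (adjusted p = 0.011), and Plxnb1, the receptor of Sema4d, by -0.58 ± 0.14 (adjusted p = 0.0225). The second probe set of each was called, at -1.02 for Plxna3 (adjusted p = 0.00455, mean level under the array median) and -1.53 for Plxnb1 (adjusted p = 0.00436). Plxna4 was 6.53, 6.35 and 5.80 against 6.62, 7.05 and 6.72 and did not pass (-0.57 ± 0.21, adjusted p = 0.0939). Plxnd1, the receptor of Sema3e, was 9.46, 9.66 and 9.74 against 9.49, 9.49 and 9.29 and its tissues overlapped.

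Among 6 netrin genes, the 2 called ones, Ntn1 and Ntn4, were higher in carotid body (background 5.91%). Of 7 genes in the receptor group, which holds Unc50 and Unc5cl, 2 were higher in adrenal medulla (background 6.08%) and 5 were not called. The difference between these groups was not tested. Ntn1, the founding diffusible netrin, had the largest difference of all 73 genes. Its level was 9.94, 10.62 and 10.55 in carotid body against 7.23, 6.13 and 5.99 in adrenal medulla, where array 1 was above the other 2. The difference was 3.92 ± 0.34, or 15.1-fold (adjusted p = 0.000293). Ntn4, a netrin of basement membranes that binds laminin, was 10.87, 10.92 and 10.94 in carotid body against 8.25, 6.63 and 6.47 in adrenal medulla. Array 1 of adrenal medulla again stood above its tissue, and the difference was 3.80 ± 0.43, or 13.9-fold (adjusted p = 0.000872), and 4.36 without that array. The second probe set was under the array median for both genes, at 0.35 for Ntn1 and 0.75 for Ntn4. Ntng1, a membrane-anchored netrin G that does not bind Dcc, was 7.40, 7.30 and 7.05 against 6.63, 5.96 and 6.67, a difference of 0.83 ± 0.21 (adjusted p = 0.0249), under 2-fold.

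Dcc, the attractive netrin receptor, was 5.35, 4.53 and 4.60 in carotid body against 7.08, 7.08 and 7.68 in adrenal medulla. Arrays 2 and 3 of carotid body lay below the array median, and the difference was -2.46 ± 0.26, or 5.48-fold (adjusted p = 0.000674). A second probe set gave -2.54 (adjusted p = 0.000576), and the last gave -0.16. Unc5a, a repulsive netrin receptor and a dependence receptor, was 5.89, 6.34 and 6.52 against 6.99, 8.06 and 7.63, a difference of -1.31 ± 0.28 (adjusted p = 0.0139). Without adrenal medulla array 3 its adjusted p was 0.0536. Unc5b, known from endothelial tip cells, differed by -0.46 ± 0.11 (adjusted p = 0.0221), and its second probe set was called, at -1.09 (adjusted p = 0.0284). Unc5c was 9.12, 9.54 and 9.39 against 8.63, 9.10 and 8.97 and did not pass (0.45 ± 0.17, adjusted p = 0.0982). Unc5d was under the array median in both tissues. Neo1, a Dcc relative among the genes listed as effectors, differed by -0.58 (adjusted p = 0.0185).

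Among the ephrins, ligands tethered to the membrane, 1 of 8 was higher in carotid body (background 5.91%). Efnb2, which marks arterial endothelium and vascular smooth muscle, was 9.89, 9.65 and 10.27 in carotid body against 8.27, 8.17 and 8.37 in adrenal medulla. The difference was 1.67 ± 0.17, or 3.18-fold (adjusted p = 0.00057). A second probe set was also called, at 1.06, and the other 2 were dim and near 0. Efnb3 was 5.83, 6.04 and 5.74 against 5.33, 5.61 and 5.35, with separate tissues but an adjusted p of 0.0516 for a difference of 0.44 ± 0.14. None of the 5 ephrin-A genes passed an adjusted p of 0.05, and the largest of their differences was that of Efna3, dim in both tissues, at 0.42 ± 0.17 (adjusted p = 0.11). Efna1, Efna3 and Efna4 are direct neighbours on chromosome 3, and none of these 3 was called.

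The Eph receptors had 5 of 13 genes higher in carotid body (background 5.91%) and 1 lower (background 6.08%). Those higher in carotid body were 3 of 9 EphA genes and 2 of 4 EphB genes. Epha3, a receptor of ephrin-A ligands found in mesenchymal cells, was 10.54, 10.80 and 10.43 in carotid body against 6.03, 7.40 and 7.47 in adrenal medulla. Adrenal medulla array 1 was the lowest of its tissue, and the difference was 3.62 ± 0.36, or 12.3-fold (adjusted p = 0.000536). Its 4 probe sets gave 0.30 to 3.64, and 3 were called. Ephb6, which lacks kinase activity, was 8.76, 9.64 and 10.01 against 6.50, 7.33 and 7.06, a difference of 2.51 ± 0.34 (adjusted p = 0.00197). Epha4, which binds both ephrin classes, was 6.54, 6.43 and 7.13 in carotid body against 4.35, 4.73 and 4.30 in adrenal medulla. Its adrenal medulla values lay under the array median, and the difference was 2.24 ± 0.21 (adjusted p = 0.000402). The 4 dimmer probe sets of Epha4 gave smaller values, the lowest -0.02.

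Ephb3, a receptor of ephrin-B ligands, was 7.27, 7.25 and 7.01 against 5.90, 6.15 and 6.14, a difference of 1.12 ± 0.13 (adjusted p = 0.00107). Epha7 was 8.72, 8.99 and 9.10 in carotid body against 7.41, 7.81 and 8.46 in adrenal medulla, where array 3 came close to carotid body. Its difference of 1.04 ± 0.26 (adjusted p = 0.0231) was lost as a call when carotid body array 2 was dropped (adjusted p = 0.0761), or the first or second of adrenal medulla (0.054 and 0.0871). It was 0.96 when carotid body array 3 was dropped, and with median-centred arrays 0.93, both under 2-fold. Epha10, another Eph receptor without kinase activity, was 5.41, 5.57 and 5.21 against 5.996, 6.87 and 6.51, a difference of -1.06 ± 0.22 (adjusted p = 0.0122). It fell under 2-fold without carotid body array 3 (-0.97) and without adrenal medulla array 2 (-0.86). Epha6 passed an adjusted p of 0.05 at a low level and under 2-fold (0.44 ± 0.12, adjusted p = 0.0366). Epha5 was 7.64, 7.18 and 8.14 against 7.57, 8.01 and 8.59, with overlapping tissues, and was not called (-0.40 ± 0.31, adjusted p = 0.42). Ephb6 and Epha1 are 18 protein-coding genes apart on chromosome 6, and Epha6 and Epha3 4 apart on chromosome 16.

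Of 3 Slit genes 0 were higher in carotid body (background 5.91%) and 1 was lower (background 6.08%), and no Robo gene was called. Slit2, the secreted repellent that binds Robo1, was 8.64, 8.58 and 8.96 in carotid body against 9.36, 9.78 and 10.08 in adrenal medulla. The tissues did not overlap, and the difference was -1.01 ± 0.20 (adjusted p = 0.00968), at the edge of 2-fold. With carotid body arrays 1 and 2 dropped in turn it was -0.97 and -0.94, with adrenal medulla array 3 dropped -0.84, all under 2-fold, and dropping array 2 of adrenal medulla also ended the call (-0.997). It was -0.93 after quantile normalization. Its 3 probe sets ranged from -1.01 to 0.72. Slit1 was 5.74, 5.87 and 5.57 against 6.53, 6.24 and 6.33, a difference of -0.64 ± 0.13 (adjusted p = 0.012). Slit3 was 7.82, 8.23 and 8.36 against 7.58, 8.26 and 8.26, with a difference of 0.10 ± 0.23 (adjusted p = 0.796).

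Robo1, the main Slit receptor of axons, was 9.56, 8.43 and 9.01 in carotid body against 9.81, 9.56 and 9.32 in adrenal medulla. Carotid body array 1 lay within the range of adrenal medulla, and the difference of -0.56 ± 0.28 did not pass (adjusted p = 0.196). Robo4, the endothelial member, was 7.34, 7.36 and 7.28 against 7.12, 7.41 and 7.08, with overlapping tissues (0.12 ± 0.13, adjusted p = 0.557). Robo3 was 5.08, 4.97 and 4.60 against 4.22, 4.24 and 4.22, under the array median in both tissues, at 0.66 ± 0.15 (adjusted p = 0.0155). The Robo2 probe set was also under the array median.

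**Figure D3:**
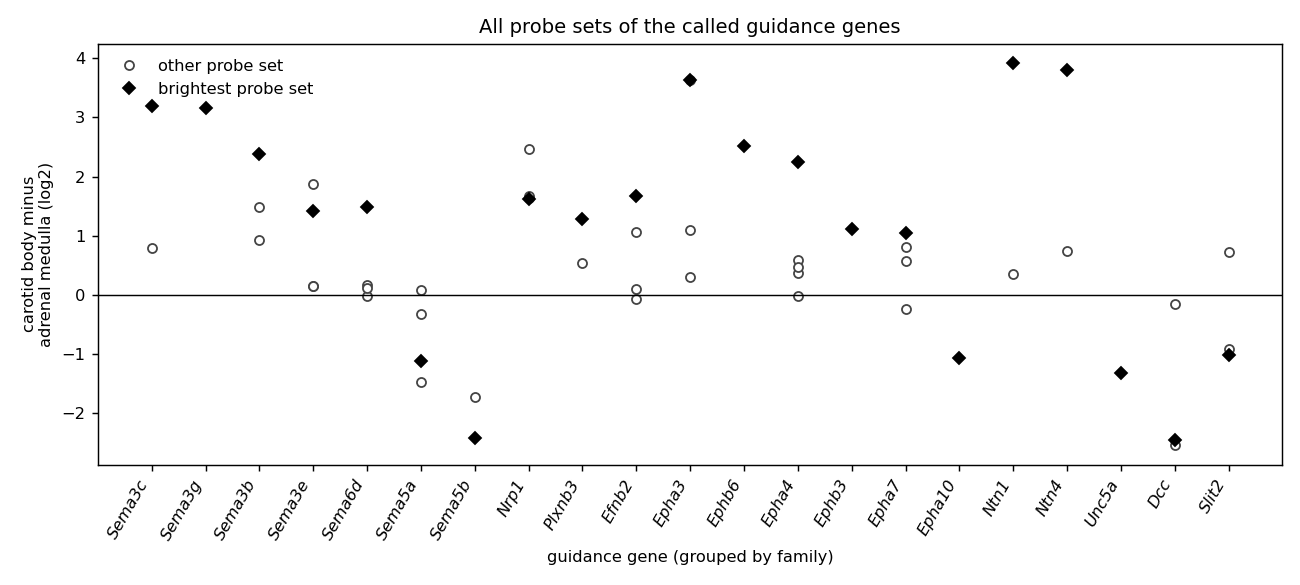
Difference between the tissues for every probe set of the 21 called genes, in log2 units of carotid body minus adrenal medulla. Filled diamonds are the brightest probe sets, on which the calls rest, and open circles are the others; the other probe sets of Nrp1 lie with or above its brightest one, while those of Ntn1 and Ntn4 lie at 0.35 and 0.75.

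Of the 21 called genes, 16 had more than 1 probe set, with 36 others in all. Of these 36, 11 were called in the same direction as the brightest, from 8 genes: Dcc, Efnb2, Epha3, Nrp1, Sema3b, Sema3e, Sema5a and Sema5b. None of the 36 was called in the opposite direction, and 22 had a mean under the array median. All 36 belong to genes already called on the brightest probe set, and no background for such probe sets is given. With the mean of all probe sets in place of the brightest, 9 members were higher in carotid body and 5 lower, with Plxnb1 gained. No background is given for that setting. Sema3e, Sema6d, Epha4, Epha7, Efnb2, Plxnb3, Sema5a and Slit2 were then no longer called, at 0.90, 0.44, 0.73, 0.55, 0.69, 0.91, -0.71 and -0.40.

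Beside the called genes, 10 members passed an adjusted p of 0.05 under 2-fold, 5 in each direction, against a background of 5.02% of all named genes toward carotid body and 10.4% toward adrenal medulla. With no minimum fold, 20 members were higher in carotid body (background 10.9%) and 11 in adrenal medulla (background 16.5%). The other 42 did not pass, and for 37 of these the 95% interval of the difference lay within 2-fold. In 13 members both tissue means lay under the array median, where an unexpressed gene cannot be told from a dim probe set.

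**Figure D4:**
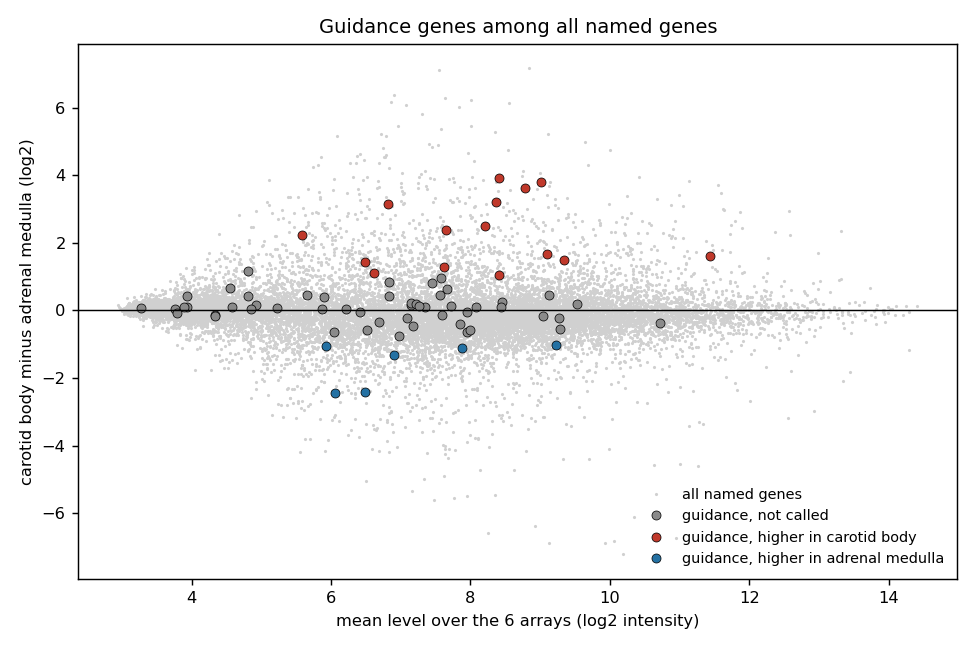
Mean level over the 6 arrays, in log2 intensity, against the difference between tissues for all 18193 named genes (light grey) and the 73 guidance genes (larger points). Red points are the 15 called higher in carotid body and blue points the 6 called higher in adrenal medulla; the called members lie between -2.46 and 3.92 on the vertical axis.

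Other genes of guidance signalling, listed here as effectors, went both ways. The list holds co-receptors and cytoskeletal genes, but also further ligands and receptors, and Kdr is in the endothelial marker list as well. Of 66 measured of 70 listed, 9 (13.6%) were higher in carotid body and 6 (9.09%) lower, against the same backgrounds of 5.91% and 6.08%. The 3 largest toward carotid body were the actin-binding Ablim1 at 2.84, the adhesion molecule and semaphorin co-receptor Chl1 at 2.69 and Flrt2, an Unc5 ligand, at 1.96 (adjusted p = 4.56e-05, 0.000105 and 0.000375). Ablim1 was 9.84, 9.92 and 10.01 in carotid body against 7.40, 6.87 and 6.98 in adrenal medulla. Toward adrenal medulla they were the kinase Pak3 at -3.16, the adhesion molecule Nrcam at -3.05 and the GTPase Rnd1, which binds plexins, at -1.89 (adjusted p = 0.000141, 0.000427 and 0.00104). Pak3 was 7.42, 6.91 and 6.61 against 9.95, 10.01 and 10.45, with a wide gap between tissues. These 6 kept their direction and their call under every alternative run. Without cohort 2 the counts were 4 and 4, with no background given for that run.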

How the data were processed

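Total RNA of 6 pools was labelled with a 3′ in vitro transcription kit and hybridised to Affymetrix arrays, per the labels' protocols. The deposited table holds log2 values, 1 per probe set and array, and the submitters' processing notes name Affymetrix Expression Console as the program the authors used. Which version and algorithm was run is not given in the sources used here. The log2 scale was read from the values, which have no detection calls, and differences of dim probe sets are compressed.

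Of 45101 probe sets, 64 controls were left out. Names came from the platform annotation, which gave 34945 tested probe sets 1 symbol, 932 more than that and 9160 no symbol. Tissues were compared with limma 3.58.1 in R 4.3.3 (lmFit, eBayes), two-sided, and the procedure was tested on simulated data. Figures and promoter searches used Python 3.11.15. The alternatives were the cohort as a replicate block, quantile normalization, median centring, a filter on dim signal, eBayes with trend and robust options, the mean of a gene's probe sets, no minimum fold, and leaving out each array or cohort.

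Cohort numbers pair the tissues, as the series' design text states. Deviations from the tissue means correlated at 0.22, 0.08 and 0.16 for the same number and at -0.21 to 0.10 otherwise. Pools of different cohorts were taken as replicates, and 3 arrays a tissue limit the precision. Per-array values are given for called members, and for further members that passed an adjusted p of 0.05 or help to describe a family, which were chosen after their values were seen. The 3 largest called effectors are named in each direction. Members, lists, markers and tests were chosen with earlier results of these data known.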

Additional observations from a re-analysis of the deposited data

How the results depend on the processing

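With the cohort as a replicate block, the 21 members called, 15 higher in carotid body and 6 lower, were the same genes. Using the mean of a gene's probe sets, 9 members and 4 effectors were higher in carotid body. With no minimum fold, 20 members and 22 effectors were higher in carotid body, against 10.9% of all genes, and 11 members and 11 effectors in adrenal medulla, against 16.5%. Leaving out each array or cohort gave 13 to 17 members higher in carotid body, 2 to 6 lower, and 4 to 10 and 4 to 7 effectors. For these runs, and for the mean of probe sets, the share of all named genes called is not given. Their counts therefore have no background. The lowest adrenal medulla counts of members were 3 without adrenal medulla array 2 and 2 without cohort 2. Of the 21 called members, 15 stayed called whichever single array was left out. Without cohort 1 Ephb3 was also lost, at 0.99, and Sema3a and Sema7a were gained, at 1.62 and 1.03. Without cohort 3 Sema3d and Ntng1 were gained, at 1.14 and 1.05. The median difference of members was 0.23 after quantile normalization, -0.0088 with centred arrays and 0.16 without dim probe sets, and 0.0842 to 0.17 when arrays or cohorts were left out. The sign turned under some alternative for 22 of the 73 members. None of the 22 was called or past an adjusted p of 0.05, and their main differences were at most 0.22 in size. Among them were Slit3 (-0.0105 with centred arrays, -0.12 to 0.26 with arrays or cohorts left out), Nrp2 (-0.40 to 0.0377) and Sema3f (0.0031 after quantile normalization, 0.0628 with the mean of probe sets, -0.30 to 0.12). The causes were not tested. The number of arrays and dim signal limit the precision.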
